A study of Brassica napus with 6 samples.

Results

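The 198 genes with the most reads in cotyledons of oilseed rape (Brassica napus) were examined, out of 100919 genes in the deposited tables. They were chosen by their level: the mean over 6 libraries had to be at least 500 CPM (a gene's count scaled to a library total of 1000000 counts). The choice thus used the level over both genotypes and not their difference, but a gene that is very high in 1 genotype can pass on that genotype alone. Of the 198 genes, 132 had a mean of at least 500 CPM in both genotypes, 27 in the mutant alone and 39 in WT alone. The genes of these last 2 sets had to differ in their genotype means, though the gap could be small. For 1 of them the means were 484 CPM in the mutant and 538 CPM in WT, and its libraries overlapped. The last gene inside the threshold had a mean of 502 CPM over the libraries, and the first outside had 499.8 CPM.

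Poly(A) RNA came from cotyledons of 3 mutant and 3 wild-type (WT) libraries. The mutant is the line named bnsdp1#CR88 in the study's design, a single line whose alleles the labels do not describe. Seedlings of both genotypes grew on 1/2MS medium with 1% sucrose in the dark for 4 days and were then moved to normal conditions for 6 h, so no group without the dark period is included. The design asks how disturbed lipid metabolism in cotyledons affects the seedling. The labels do not tell whether replicates are separate seedlings, so each p-value reflects the spread between libraries alone, and that spread may be technical.

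SDP1 (SUGAR-DEPENDENT1) is known from Arabidopsis as a lipase that starts the breakdown of oil stored in the seed. In oilseeds the cotyledons first live on that oil and then turn into photosynthetic leaves, and in a tissue of this kind a small number of genes gives a large part of the messenger RNA. Oilseed rape joins an A and a C subgenome, so many genes exist as an A copy and a C copy. The gene identifiers in the files are not paired with names, and 0 of them matched a table of 123214 named genes of another assembly (Da-Ae). No role can therefore be given to any of the 198 genes, the cotyledon label was not checked against markers, and the level of the targeted gene is not analysed here. Genes are described below by their rank in mean CPM, chromosome and gene span, and 4 of them by identifier.

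Library totals were between 48288744 and 65550668 counts, and the common biological coefficient of variation over all tested genes was 0.145. At these depths the counting error of a gene of 500 CPM is far below that spread. Within a genotype, Pearson's r of log2 CPM across genes was 0.973 to 0.986 between libraries (genes are not independent replicates), and no pair agreed within sampling noise. How reads common to near-identical copies were counted is not known, which makes the value of a single copy uncertain. The stated gene length equalled the span between the gene's ends in every row, so it can include introns.

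The most abundant genes held a smaller part of all reads in the mutant than in WT. They made up 0.196% of the genes in the tables and held 19.4%, 21.7% and 20.04% of counts in mutant replicates 1, 2 and 3, against 23.9%, 23.4% and 22.9% in WT replicates 1, 2 and 3. The genotypes did not overlap, and mutant replicate 2 lay closest to WT. The means were 20.4% ± 1.16 in the mutant and 23.4% ± 0.491 in WT (SD, n = 3 each), -3.02 percentage points apart (two-sided exact permutation test, p = 0.1, which is the lowest possible with 3 against 3). The 10 highest genes alone held 4.06% ± 0.307 of counts in the mutant and 4.76% ± 0.0828 in WT (n = 3 each, exact permutation p = 0.1). In bulk tissue, fewer cells of a type and less RNA per cell cannot be told apart.

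Fewer genes reached very high levels in the mutant libraries. At least 1000 CPM was reached by 58, 70 and 60 genes in mutant replicates 1, 2 and 3, and by 89, 84 and 77 genes in WT replicates 1, 2 and 3 (two-sided exact permutation test, p = 0.1, n = 3 each). The 1958, 1726 and 1927 highest genes of the mutant libraries were needed to make up 50% of counts, against 1630, 1623 and 1811 genes of the WT libraries. In this last measure mutant replicate 2 lay below WT replicate 3, so the groups overlapped (exact two-sided permutation p = 0.2, n = 3).

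**Figure D1:**
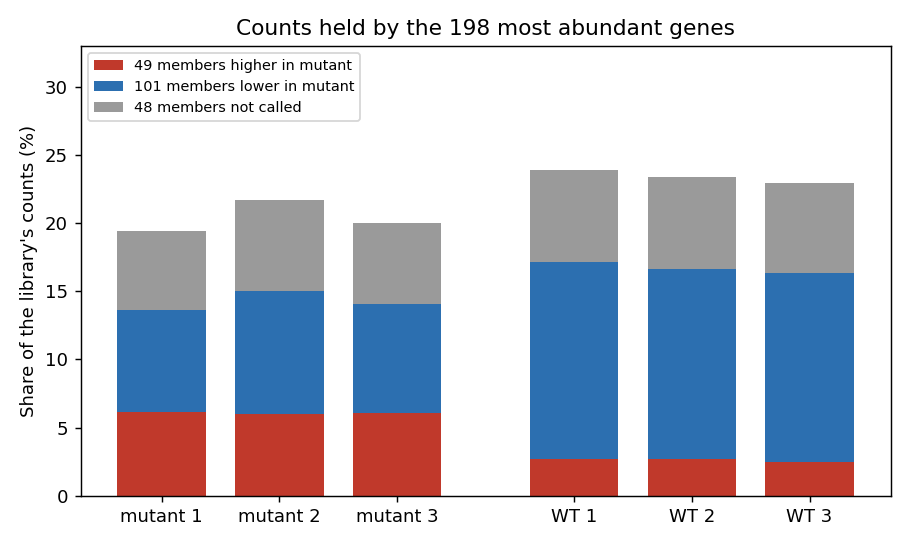
Share of each library's counts (y axis, %) held by the 198 most abundant genes, as stacked bars for the 3 mutant and 3 WT libraries, split into genes called higher in the mutant, called lower and not called (edgeR, FDR under 0.05). The 101 lower genes hold 7.46% to 9.04% of counts in the mutant libraries and 13.8% to 14.5% in the WT libraries, and the 49 higher genes hold 5.98% to 6.14% in the mutant libraries and 2.50% to 2.73% in the WT libraries. The calls come from these same libraries, so the direction of both differences was fixed in advance.

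Falls outnumbered rises among the most abundant genes. By edgeR's quasi-likelihood test, fitted on all 56385 tested genes with Benjamini-Hochberg adjustment (FDR under 0.05), 150 of the 198 (75.8%) differed between mutant and WT, against 51.7% of all tested genes. Of these, 49 were higher in the mutant and 101 lower, which is 24.7% and 51.01% of the 198 genes, against 25.5% and 26.2% of all tested genes. The median log2 fold change of mutant over WT was -0.33 over the 198 genes and 0.02 over all tested genes. Genes that had to differ, as they reached the threshold in 1 genotype mean only, are part of these counts. Among the 132 genes above 500 CPM in both genotype means, 22 were higher, 65 lower and 45 not called, so 65.9% were called. Among the 425 genes between 200 and 500 CPM 64% were called, but these were picked by the mean over both genotypes, so the 2 shares are not alike. Picked in that way, 77.9% of the 136 genes between 500 and 1000 CPM were called. From 1000 CPM upwards it was 71.0% of 62 genes. In the bands between 10 and 200 CPM, 65.1% to 70.2% were called. The 51.7% of all tested genes also counts genes below 10 CPM.

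Rises gave way to falls towards higher levels. Among the 758 genes between 100 and 200 CPM, 39.2% were higher and 27.6% lower in the mutant. Between 200 and 500 CPM the shares were 29.4% and 34.6% of 425 genes. Between 500 and 1000 CPM they were 27.9% and 50% of 136 genes, and from 1000 CPM upwards 17.7% and 53.2% of 62 genes. These bands are descriptions, since all come from the same fit. The bands from 500 CPM upwards include the 27 genes that reached 500 CPM in the mutant mean alone and the 39 in the WT mean alone. Median span fell over the same 4 bands, at 2084.5, 1663, 1459.5 and 1235 bp. Whether the change goes with level apart from span was not tested.

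Most falls and a majority of rises were under 2-fold. Of the 101 lower genes, 77 fell by less than 2-fold, with a median log2 fold change of -0.65 over all 101. Of the 49 higher genes, 27 rose by less than 2-fold, with a median of 0.92 over all 49. Called genes with a change of 2-fold or more numbered 22 higher and 24 lower, or 11.1% and 12.1% of the 198, near the 9.23% and 13.0% of all tested genes. Most of these reached 500 CPM in 1 genotype mean only. Among the 132 genes at 500 CPM in both means, 5 were at least 2-fold higher and 6 at least 2-fold lower. The demand for 500 CPM in both means left out 17 of the 22 rises and 18 of the 24 falls of at least 2-fold. The shares among the 132 genes can therefore not be set against the 9.23% and 13.0% of all tested genes. Of these 132 genes, the median log2 fold change was 0.57 over the 22 higher and -0.55 over the 65 lower genes. Of 16-fold or more, 5 were higher and 1 lower, or 2.53% and 0.505% of the 198, against 0.865% and 0.99% of all tested genes. All 6 reached 500 CPM in 1 genotype mean only and so had to differ.

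Summed CPM is the share of counts on another scale, so its net of -30184 CPM is the difference of -3.02 percentage points given above. Summed over genes, mean CPM was higher in the mutant for 69 genes by 35754 CPM in all, and lower for 129 genes by -65938 CPM. The 10 largest gains made up 51.6% of all gains, while the 10 largest losses made up 21.5% of all losses. Of the 10 largest gains, 7 were of genes that reached 500 CPM in the mutant mean alone and so had to be higher, and of the 10 largest losses 3 were of genes that reached it in the WT mean alone. Among the genes at 500 CPM in both genotype means, 42 gained and 90 lost, and the 10 largest made up 76.3% of the gains and 29.9% of the losses. As more genes lost than gained, 10 genes are a larger part of those that gained. Whether this accounts for the whole difference between gains and losses was not tested. The mutant values lay wholly above the WT values for 54 of the 198 genes and wholly below for 113, against 27.6% and 32.8% of all tested genes, and the genotypes overlapped for 31.

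**Figure D2:**
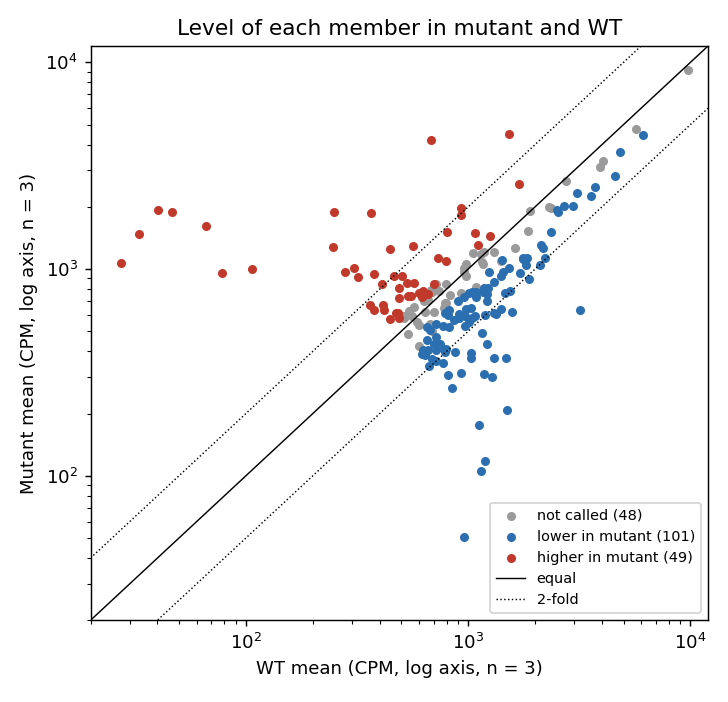
Mean level of each of the 198 genes in the mutant (y axis, CPM, log scale, n = 3) against WT (x axis, CPM, log scale, n = 3), coloured by call, with lines for equal levels and 2-fold differences. The genes highest in WT lie close below the line of equality apart from 1 gene at 632 CPM in the mutant and 3199 CPM in WT, while 5 genes under 100 CPM in WT lie above 1000 CPM in the mutant.

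The single most abundant gene did not pass the test. It lies on chromosome C04 with a span of 998 bp and had 8693, 9816 and 8917 CPM in mutant replicates 1, 2 and 3, against 9213, 9750 and 10131 CPM in WT replicates 1, 2 and 3. The genotypes overlapped, and the log2 fold change was -0.04 (SE 0.112, edgeR adjusted p = 0.774). It held rank 1 in both genotypes and 0.869% to 1.01% of the counts of each library. Per kb of span it was also the highest of all genes, at a mean of 9439 CPM per kb.

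Among the 10 genes with the highest mean CPM, 5 were called lower, 1 higher and 4 were not called. Of all tested genes 26.2% were lower and 25.5% higher, and with 10 genes the counts are a description. The second, on C04, had 3922, 5053 and 4396 CPM in mutant replicates 1, 2 and 3, against 6266, 5772 and 6302 CPM in WT (log2 fold change -0.41, SE 0.125, edgeR adjusted p = 0.0187). Its mutant values all lay below its WT values. The third, on A04, had 4341, 4714 and 5275 CPM in the mutant libraries and 5508, 5761 and 5853 CPM in the WT libraries, and did not pass the test although the genotypes did not overlap (log2 fold change -0.22, edgeR adjusted p = 0.125). The fifth, on C04 and 801 bp long, had 2575, 3253 and 2648 CPM in the mutant libraries, against 4983, 4480 and 4198 CPM in WT (log2 fold change -0.64, SE 0.133, edgeR adjusted p = 0.00235). The calls at ranks 2 and 4 depended on single libraries. That at rank 2 was lost without mutant replicate 1, mutant replicate 3 or WT replicate 1, at adjusted p of 0.0740, 0.0611 and 0.0702 in edgeR. That at rank 4 (log2 fold change -0.34, edgeR adjusted p = 0.0369) was lost without any one library but mutant replicate 2, at adjusted p of 0.0576 to 0.136. The gene of rank 7, which did not pass (edgeR adjusted p = 0.0767), passed without mutant replicate 2 (log2 fold change -0.43, adjusted p = 0.0116). In all of the top 10 but ranks 3 and 9, mutant replicate 2 was the highest of the mutant libraries. Over all 198 genes, replicate 2 was the highest mutant library for 123 and replicate 1 the lowest for 111.

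The ninth gene was the 1 of the top 10 that was called higher. It lies on C05 with a span of 7186 bp, and had 4348, 4279 and 4934 CPM in mutant replicates 1, 2 and 3, against 1466, 1506 and 1584 CPM in WT replicates 1, 2 and 3. All mutant values were higher (log2 fold change 1.61, SE 0.102, edgeR adjusted p = 8.75e-07). Its rank was 3 in the mutant and 37 in WT. Of the others in the top 10, 6 had spans between 996 and 1048 bp.

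A gene on A05 with a span of 3214 bp showed the largest gain in CPM. It had 4286, 3850 and 4471 CPM in the mutant libraries, against 629, 658 and 745 CPM in the WT libraries (log2 fold change 2.67, SE 0.110, edgeR adjusted p = 5.55e-08), and stood at rank 5 in the mutant and 141 in WT. The 5 largest gains were those of this gene, of the ninth gene described above, and of genes on C07, A06 and A03, which gained 1883, 1834 and 1632 CPM. The largest loss was that of a gene on A01 with a span of 1864 bp. It had 510, 642 and 745 CPM in the mutant libraries, against 3157, 3146 and 3294 CPM in the WT libraries (log2 fold change -2.30, SE 0.141, edgeR adjusted p = 7.36e-07), and stood at rank 134 in the mutant and rank 10 in WT. The next losses were those of the genes of ranks 5, 2 and 10, all on C04, and of a gene on C07 at 209 ± 31.7 CPM in the mutant and 1493 ± 43.6 CPM in WT (SD, n = 3 each).

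The 2 largest fold rises were in genes that were low in WT. BnaC07G0335700ZS (chromosome C07, 47138546 to 47143040, minus strand) had 1762, 1919 and 2089 CPM in mutant replicates 1, 2 and 3, against 46.7, 43.4 and 31.0 CPM in WT replicates 1, 2 and 3. The log2 fold change reached 5.61 (SE 0.185, edgeR adjusted p = 1.41e-08). BnaA02G0366700ZS (chromosome A02, 32239811 to 32244720, minus strand) had 1363, 1554 and 1530 CPM in the mutant libraries, against 42.0, 35.2 and 22.3 CPM in the WT libraries (log2 fold change 5.52, SE 0.236, edgeR adjusted p = 7.06e-08). In both genes WT replicate 3 was the lowest WT library. Coordinates are those of the deposited tables, whose genome build the sources used here do not give.

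The other rises of at least 16-fold were likewise in genes under 100 CPM in WT. A gene on A06 with a span of 4561 bp had 1881 ± 35.1 CPM in the mutant and 46.4 ± 11.6 CPM in WT, one on A05 with a span of 859 bp had 1067 ± 59.5 CPM in the mutant and 27.4 ± 4.78 CPM in WT, and one on A09 had 1616 ± 200.2 CPM in the mutant and 66.5 ± 5.26 CPM in WT (SD, n = 3 each). The A09 gene has the longest span of the 198, at 17462 bp. Rises of at least 4-fold were found for 11 genes, 5.56% of the 198 against 3.3% of all tested genes, and 10 of the 11 reached 500 CPM in the mutant mean alone. Those of at least 8-fold were found for 7 genes, 3.54% of the 198 against 1.61% of all tested genes, and all 7 reached 500 CPM in the mutant mean alone. Of the 7, 5 have spans between 4495 and 4992 bp. Whether any of them are copies of each other was not tested, as no sequence was at hand.

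The 2 largest fold falls were in genes that were near 1000 CPM in WT. BnaC04G0080200ZS (chromosome C04, 7105013 to 7105896, minus strand) had 30.0, 53.9 and 67.9 CPM in mutant replicates 1, 2 and 3, against 831, 825 and 1202 CPM in WT replicates 1, 2 and 3 (log2 fold change -4.19, SE 0.289, edgeR adjusted p = 1.58e-06). Its mean over all libraries was the lowest of the 198. BnaC01G0013800ZS (chromosome C01, 702029 to 705682, plus strand) had 78.1, 105 and 133 CPM in the mutant libraries and 1007, 1015 and 1406 CPM in the WT libraries (log2 fold change -3.39, SE 0.207, edgeR adjusted p = 7.13e-07). In both genes WT replicate 3 was the highest WT library and mutant replicate 1 the lowest mutant library. Falls of at least 4-fold were found for 7 genes and of at least 8-fold for 3, or 3.54% and 1.52% of the 198, against 4.96% and 2.08% of all tested genes. All but 1 of the 7 reached 500 CPM in the WT mean alone.

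The lists of highest genes differed more between genotypes than between libraries of the same genotype. Of the 10 highest genes by genotype mean, 7 were in both lists, and of the 50 highest 30. Of the 198 highest, 132 were shared (66.7% of each list). Single libraries of the same genotype shared 182 to 188 of their 198 highest genes within the mutant and 181 to 187 within WT, against 128 to 136 between a mutant and a WT library. The rank number was at least 4 times smaller in the mutant than in WT for 19 of the 198 genes, and at least 4 times larger for 12. Ranks beyond 1000 in WT were held by 7 genes, down to rank 6457, and ranks beyond 1000 in the mutant by 3 genes, down to rank 3401. These 7 genes reached 500 CPM in the mutant mean alone and these 3 in the WT mean alone. They thus had to differ, and other genes that had to differ are part of the counts of 19 and 12.

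**Figure D3:**
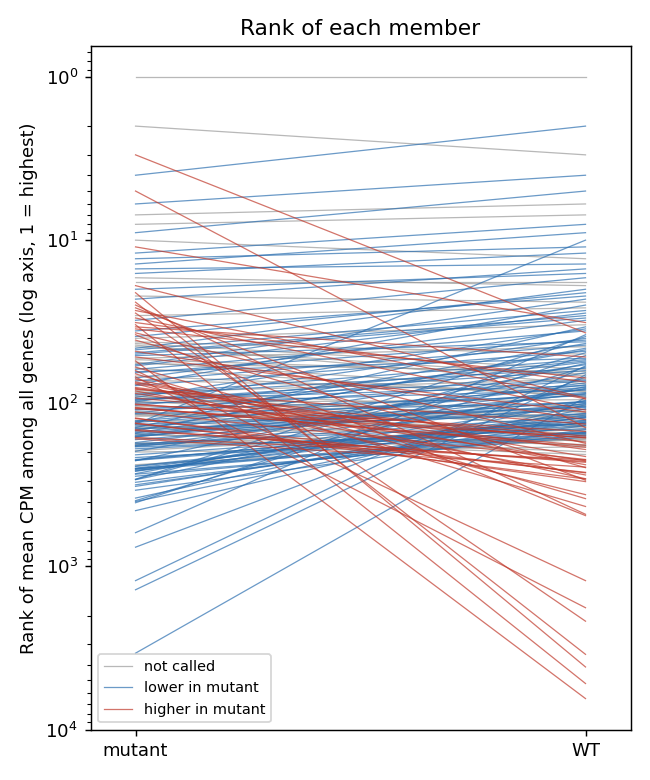
Rank of each of the 198 genes by mean CPM among all genes (y axis, log scale, 1 is the highest) in the mutant (left) and in WT (right), 1 line per gene, coloured by call. The highest gene holds rank 1 on both sides, 2 higher genes stand at ranks 3 and 5 in the mutant and at 37 and 141 in WT, and 7 higher genes reach ranks beyond 1000 in WT. These 7 reached 500 CPM in the mutant mean alone and so had to differ.

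Ranks by reads favour long genes, as a longer transcript gives more reads. Ranked by CPM per kb of span, 132 of the 198 genes were again among the 198 highest, and the lowest stood at rank 2065. That lowest is the A09 gene with the longest span, at 48.2 CPM per kb. Another list, chosen after seeing the data, held the 198 genes highest in CPM per kb. In that list 37 were higher in the mutant, 103 lower and the others not called. The called genes were 70.7% of the list, against 51.7% of all tested genes. Among all tested genes, 25.5% were higher and 26.2% lower. How many genes of the list were high in the mutant mean alone or in the WT mean alone was not counted.

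The most abundant genes were shorter than tested genes in general, and most of the shorter ones were lower in the mutant. Their median span was 1398 bp, against 1790 bp for all tested genes, and 56.1% had a span of at most 1500 bp, against 40.9% of all tested genes. Lower genes had a median span of 1198 bp, higher genes of 2697 bp and genes not called of 1299 bp. Of the 55 genes with spans above 1000 and up to 1500 bp, 39 (70.9%) were lower in the mutant and 6 (10.9%) higher. Their median log2 fold change was -0.52. Of the 56 genes up to 1000 bp, 32 (57.1%) were lower and 7 (12.5%) higher, with a median of -0.48. Of the 50 genes above 2500 bp, 13 (26%) were lower and 26 (52%) higher, with a median of 0.29. Of all 198 genes 51.01% were lower and 24.7% higher, against 26.2% and 25.5% of all tested genes. These last shares were not split by span. Across the 198 genes, span and log2 fold change had a Spearman's rho of 0.29, given as a description since the genes share their libraries.

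Below the threshold the longest class again had the highest median. Among the 1183 genes between 100 and 500 CPM, those above 2500 bp had a median log2 fold change of 0.22, with 49.3% higher and 23.6% lower in the mutant. Those above 1500 and up to 2500 bp had a median of -0.09, with 30% higher and 35.2% lower. Those above 1000 and up to 1500 bp had a median of 0.00, with 29.5% higher and 26.8% lower, and those up to 1000 bp had a median of -0.07, with 23.5% higher and 37.7% lower, so the 3 shorter classes had no order by span. Genes of at most 1500 bp held 36.5%, 38.8% and 37.0% of all counts in mutant replicates 1, 2 and 3, against 42.1%, 42.3% and 40.9% in WT replicates 1, 2 and 3. With the abundant genes left out, the shares were 31.8% ± 0.637 in the mutant and 33.9% ± 0.803 in WT (SD, n = 3 each, exact two-sided permutation p = 0.1).

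Within the 198 genes, the shorter ones held a smaller part of the counts in the mutant. The 99 genes up to the median span held 52.6%, 55.5% and 53.2% of the members' counts in mutant replicates 1, 2 and 3, against 61.3%, 60.4% and 60.7% in WT replicates 1, 2 and 3. The genotypes did not overlap, at 53.8% ± 1.51 in the mutant and 60.8% ± 0.478 in WT, which is -7.04 percentage points (SD, n = 3 each, exact permutation p = 0.1). Mutant replicate 2, the mutant library with the largest share of counts in the abundant genes, was also the one with the largest share in short genes; whether library make-up has a part in the pattern was not tested. When a smooth trend of each library on gene span was removed, a setting chosen after seeing the data, 87 of the 198 genes were lower and 49 higher. Their median log2 fold change was -0.29 over all 198. Of all 56385 tested genes, 14396 were lower and 14849 higher in that fit, against 14787 and 14365 in the main fit.

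**Figure D4:**
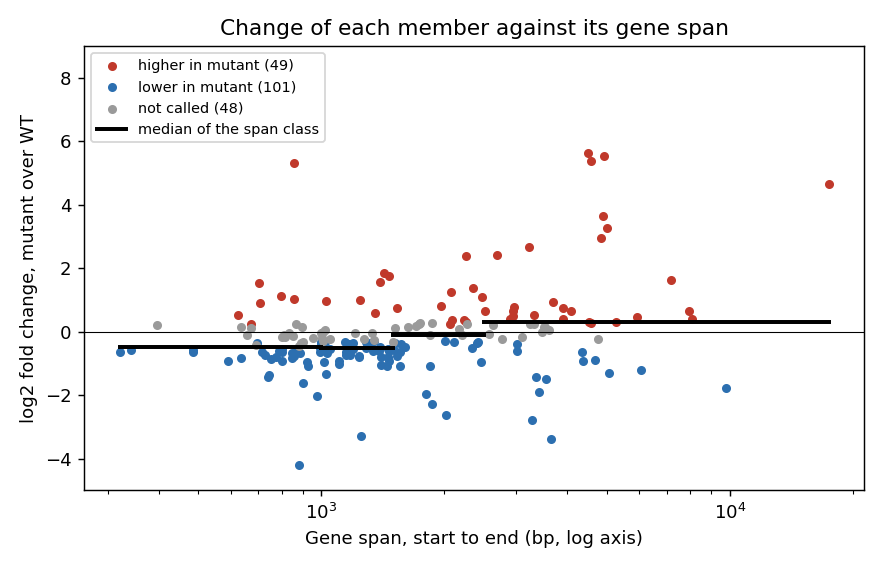
Log2 fold change of mutant over WT (y axis) against gene span from start to end (x axis, bp, log scale) for the 198 genes, coloured by call, with a bar at the median of each of 4 span classes. The medians are -0.48 and -0.52 in the classes up to 1000 and up to 1500 bp, -0.10 up to 2500 bp and 0.29 above it.

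The most abundant genes divided almost evenly between the subgenomes. Of the 198, 97 lie on A and 101 on C chromosomes, so 49.0% are A genes, against 48.7% of the tested genes placed on A and C chromosomes, and 0 lie on unplaced sequences. Higher in the mutant were 23 A and 26 C genes, lower 52 A and 49 C genes, and not called 22 A and 26 C genes. Of all tested genes, 25.5% were higher and 26.2% lower, shares that were not split by subgenome. The median log2 fold change was -0.35 for A and -0.27 for C genes, and the median level 788 and 780 CPM.

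The A share of the members' counts was 48.3%, 48.4% and 48.6% in mutant replicates 1, 2 and 3, against 48.2%, 48.1% and 48.1% in WT replicates 1, 2 and 3. The A share was thus 0.25 points higher in the mutant (exact permutation p = 0.1, n = 3 each), which did not keep its direction with other thresholds for membership, at -0.93 points for 200 CPM and -0.23 points for 1000 CPM. It was 0.167 points without mutant replicate 3. Over all genes that are not members the A share was 47.3% ± 0.319 in the mutant and 48.3% ± 0.276 in WT (SD, n = 3 each), a difference of -1.003 points (exact permutation p = 0.1).

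All 19 chromosomes held members, at 3.51 per 1000 tested genes over the whole set. A09 held the most, 22 or 5.04 per 1000 tested genes, and A10 the fewest, 3 or 1.56 per 1000. A08 had the highest density, at 5.48 per 1000 with 11 members. Whether the spread over chromosomes is uneven was not tested. C04 held 15 members with 15.03% of all member counts, among them 5 of the 10 highest genes, and 10 of its 15 were lower in the mutant and 1 higher, against 27.4% lower and 24.9% higher among all tested genes of C04. On C02 all 6 members were lower, against 26.1% of all tested genes of that chromosome. On A07, where 31.9% of all tested genes were lower and 21.8% higher, 7 of 10 members were lower and 0 higher. With so few members a chromosome, these counts are descriptions.

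**Figure D5:**
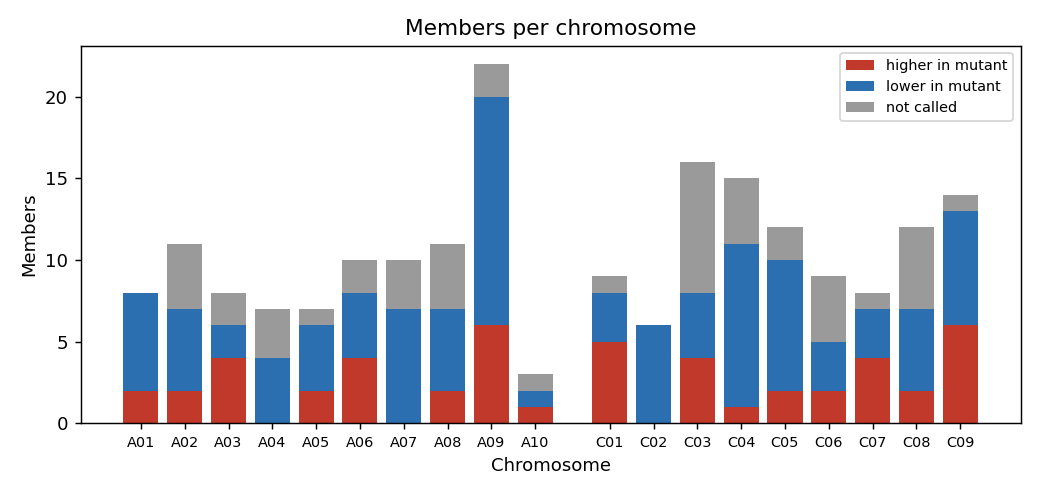
Number of the 198 genes on each of 10 A and 9 C chromosomes (bars), split into genes called higher in the mutant, lower and not called. A09 has the most, 22, of which 14 are lower and 6 higher.

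A few abundant genes lie side by side. With a gap of at most 50 kb, 14 of the 198 genes formed 6 groups. One on A04 (11915596 to 11939838) holds 3 genes of 1004 to 1022 bp, all on the minus strand, at ranks 3, 16 and 23. Another on C04 (50500677 to 50547569) holds 3 genes of 998 to 1048 bp, all on the plus strand, at ranks 1, 6 and 82. Changes within a group were not equal. In the C04 group the gene of rank 82 had 552, 724 and 524 CPM in the mutant libraries, against 1174, 1227 and 1187 CPM in the WT libraries (log2 fold change -0.95, SE 0.139, edgeR adjusted p = 0.000264), while neither of its neighbours at ranks 1 and 6 passed the test. In the A04 group the gene of rank 16 was lower (log2 fold change -0.34, edgeR adjusted p = 0.0268), a call lost without mutant replicate 1, mutant replicate 3 or WT replicate 2 (adjusted p of 0.0835, 0.0916 and 0.101), and those of ranks 3 and 23 did not pass. Spans within each of these 2 groups are alike, how reads common to neighbours were counted is not known, and the values of single genes there are uncertain. Across the 198 genes, 6 overlap another gene on the opposite strand, and the highest of those overlapping genes had a mean of 38.4 CPM.

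Some members lie in 3 chromosome stretches that earlier work on these data had picked out because neighbouring genes move together there. In the first 15 Mb of A01 there are 6 members, of which 5 were lower and 1 higher, among them the gene with the largest loss in CPM. Of the 1512 other tested genes there, 43.8% were lower and 14.9% higher. Between 46 and 51 Mb of C06 there are 2 members, both higher, with log2 fold changes of 0.51 and 0.60, and 48.5% of the 497 other tested genes were higher there and 16.1% lower.

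Between 27 and 32 Mb of A07 there are 3 members, and of the 622 other tested genes there 44.9% were lower and 8.04% higher. The gene of rank 100 was lower, at 643, 705 and 314 CPM in mutant replicates 1, 2 and 3, against 1073, 1071 and 885 CPM in WT replicates 1, 2 and 3 (log2 fold change -0.82, SE 0.256, edgeR adjusted p = 0.0215). Mutant replicate 3 was by far the lowest, and without it the log2 fold change was -0.53 (edgeR adjusted p = 0.0123). Without WT replicate 1 or 2 the call was lost, at edgeR adjusted p of 0.0556 and 0.0624. The other members there, at ranks 163 and 174, did not pass in all libraries and were higher in the mutant without mutant replicate 3 (log2 fold changes 0.35 and 0.47, edgeR adjusted p = 0.0495 and 0.00507).

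Replicates of the same genotype lay close together for most members. The coefficient of variation over 3 libraries had a median of 8.90% in the mutant and 6.43% in WT, with quartiles of 6.24% and 13.2% in the mutant and 3.96% and 9.50% in WT. It was larger in the mutant for 139 of the 198 genes. The 48 genes that were not called had fitted log2 fold changes of at most 0.45 in size, and failing the test does not show that their levels were equal.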

How the data were processed

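Poly(A) RNA of 3 mutant and 3 WT cotyledon libraries was analysed from the deposited raw counts of reads per gene, which the authors deposited without normalization as 1 table per library. The submitters' processing notes name fastp, HISAT2 and featureCounts; the sources used here do not give versions, genome build, strand setting or the handling of multi-mapping reads.

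CPM was computed on library totals of 48288744 to 65550668 counts. Genes were tested with edgeR 4.0.16 in R 4.3.3 after filterByExpr and TMM scaling, with the quasi-likelihood F test (robust set to FALSE) and no covariate. Adjustment by Benjamini-Hochberg was over all 56385 tested genes, and the fit was tested on simulated counts. Shares were compared by exact permutation over libraries. DESeq2 1.42.0, limma 3.58.1 (voom), other scalings, other membership thresholds and left-out libraries were the alternatives.

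The members and tests were chosen with earlier results of these data known. Identifiers printed are the 2 largest rises and the 2 largest falls among members called at FDR under 0.05 whose genotypes did not overlap. The 10 highest genes, the 5 largest gains and losses and the genes next to the threshold are given by rank or chromosome. No gene sequences were at hand.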

Additional observations from a re-analysis of the deposited data

How the results depend on the processing

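The count of 150 changed members was between 136 and 161 under 8 other fits, of which that without the length trend (136) was chosen after seeing the data, and 127 to 153 when single libraries were left out; the count of 46 changed at least 2-fold was 44 to 46 and 40 to 52. No member changed direction while called in both fits, and leaving out a library kept 127 to 145 of the 150 calls. Counts moved with the membership: 422 changed members and 126 at least 2-fold with a mean of 200 CPM (of 623 genes), 44 and 10 with 1000 CPM (of 62), 76 and 10 with 500 CPM in every library (of 118), and 87 and 11 with 500 CPM in both genotype means (of 132), a setting chosen after seeing the data. These lists differ in size, so their counts cannot be set side by side. In that order, 67.7%, 71.0%, 64.4% and 65.9% of their genes were changed. In the main list it was 75.8%, and among all tested genes 51.7%. Lists that demand 500 CPM in every library or in both genotype means leave out the genes that had to differ. Leaving out single libraries moved the difference in member share from -3.67 to -2.54 points, in the share of the 10 highest from -0.858 to -0.551, in the A share from 0.167 to 0.325 and in the short members' share from -7.89 to -6.46. The A share reversed to -0.928 points at 200 CPM and -0.225 points at 1000 CPM; the cause was not tested. For all tested genes the count of 29152 was 25676 to 29440 over 14 settings. Log2 fold changes of the 4 genes given by identifier kept their sign and call. Deviations of mutant and WT libraries with the same number had r of 0.21, -0.06 and 0.07, so the numbers were not taken as pairs, and the replicate block gave 153 changed members, 46 at least 2-fold and 28376 changed genes in all. With 3 libraries a genotype, no exact permutation p can fall below 0.1.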
